A study of Mus musculus with 8 samples.

Results

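Nuclear receptors are transcription factors that bind DNA at the genes they control, many of them switched on by a small fat-soluble ligand such as a fatty acid, a bile acid, an oxysterol, a thyroid hormone or a steroid. In liver they set the rates of fatty acid oxidation, bile acid synthesis, drug clearance and glucose production, and many act as a pair with a retinoid X receptor. Their mRNAs can carry N6-methyladenosine (m6A), a methyl mark placed in the nucleus by the METTL3-METTL14 enzyme, which WTAP holds in place. The mark lies mostly near stop codons and in 3′ untranslated regions, and reader proteins that bind it can change how long the mRNA lasts and how well it is translated. The m6A peaks of 35 nuclear receptor genes are described here. The genes were chosen by name, leaving out *Hnf4a* and *Nr1d1*, and every peak that the lists assign to 1 of these symbols was taken. The peaks numbered 59 of 15635 in *Wtap* flox/flox livers and 60 of 19185 in *Wtap*-HKO livers.

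The livers came from 8-week-old male C57BL/6 mice fed a normal chow. Both groups carry floxed *Wtap* alleles, and the *Wtap*-HKO mice also carry Cre under the albumin promoter, which removes *Wtap* in hepatocytes and leaves it in the other cells of the liver. Each genotype had 2 libraries of RNA pulled down with an antibody to m6A (IP) and 2 libraries of the RNA before the pull-down (input), and RNA of several mice was pooled for each replicate. The deposited lists hold 1 set of peaks a genotype with the replicates already combined, so no value has a replicate error, no difference could be tested, and the depth behind a peak is unknown. In whole liver, fewer cells of a type and less RNA per cell cannot be told apart, and a transcript with few fragments can lack a listed peak whether or not it is methylated. *Wtap* itself had 3 peaks in each list, which does not measure the deletion.

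Of the 35 receptor genes, 26 had a peak in *Wtap* flox/flox livers and 27 in *Wtap*-HKO livers, and 26 had one in both. *Rarg*, a retinoic acid receptor, was the gene with peaks in *Wtap*-HKO livers alone, and no receptor had peaks in *Wtap* flox/flox livers alone. These are 1 and 0 of the 27 receptors with a peak, against 22.0% and 7.99% of all 11558 genes with one. The receptors were rich in peaks for genes with any. Of the 26 receptors with a peak in *Wtap* flox/flox livers, 21 (80.8%) had 2 or more, against 44.6% of the 9020 genes in that list. In *Wtap*-HKO livers 22 of 27 (81.5%) had 2 or more, against 47.6% of 10634 genes.

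**Figure D1:**
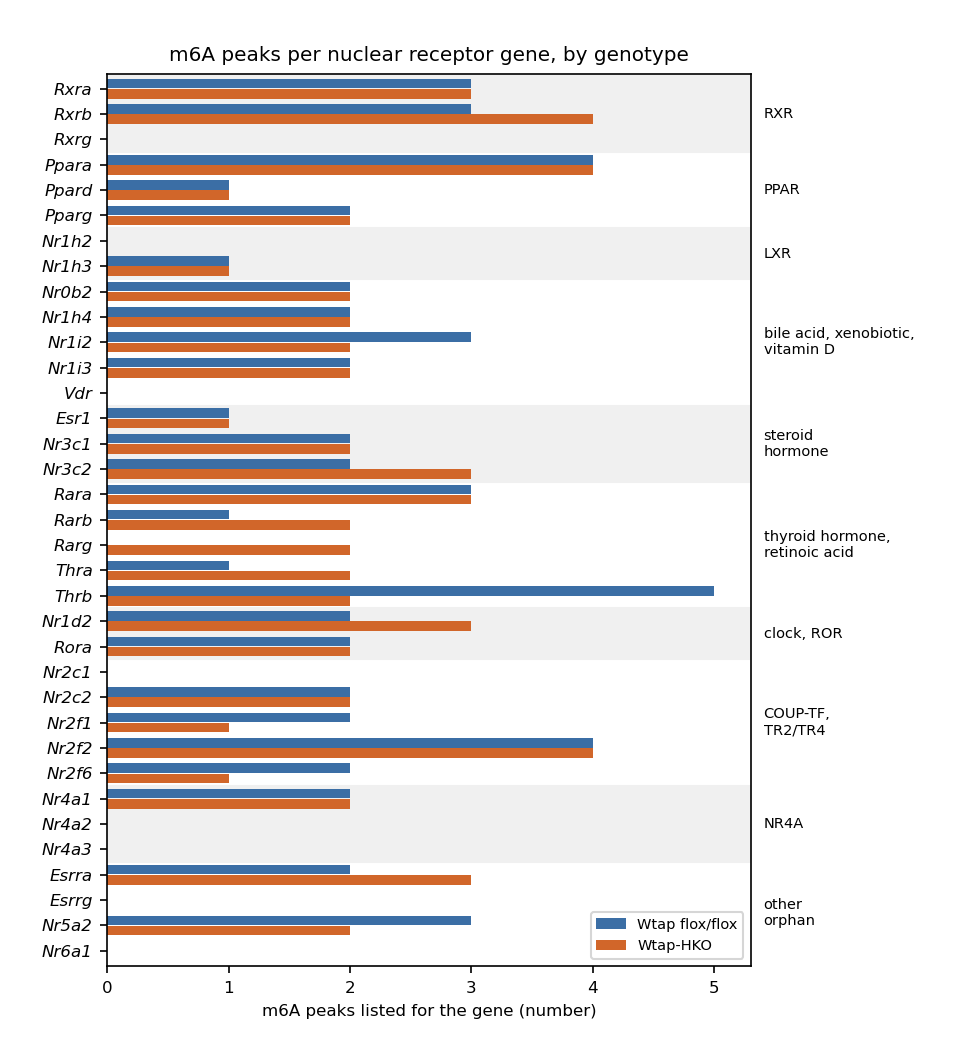
The bars give the number of m6A peaks listed for each of the 35 nuclear receptor genes in Wtap flox/flox (blue) and Wtap-HKO (orange) livers, with the receptors grouped by ligand or family. Thrb had 5 blue and 2 orange peaks, Rarg 0 and 2, and 8 receptors had none in either list.

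Most receptor peaks were listed in both genotypes. A peak counted as shared when it had at least 1 exonic base in common with a peak of the other genotype on the same strand. Of the 59 peaks in *Wtap* flox/flox livers, 49 (83.1%, 95% Wilson interval 71.5 to 90.5) were shared, against 80.1% of all peaks, and 10 (16.9%) were not, against 19.9% of all peaks. Of the 60 peaks in *Wtap*-HKO livers, 48 (80.0%, 68.2 to 88.2) were shared, against 64.7% of all peaks, and 12 (20.0%) were not, against 35.3%. The intervals cover counting error only, and peaks of 1 gene are not independent. The share of receptor peaks in *Wtap*-HKO livers alone was thus below that of all peaks, and the share in *Wtap* flox/flox livers alone was near it.

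The peaks found in 1 genotype differed in place. Of the 10 receptor peaks listed in *Wtap* flox/flox livers alone, 7 (70.0%) had their midpoint in the final 10% of the gene span, against 49.8% of all such peaks, and none had an edge within 200 nt of an annotated RefSeq transcript start, against 5.72%. Of the 12 receptor peaks listed in *Wtap*-HKO livers alone, 11 belonged to genes with an annotated start in the table used, and 8 of these (72.7%) lay within 200 nt of one, against 36.4% of all such peaks. Of the 12, 1 had its midpoint in the final 10% of the gene span, against 26.2%. The 8 peaks within 200 nt of a start were in *Esrra*, *Nr1d2*, *Nr3c2*, *Ppara*, *Pparg*, *Rarb*, *Rarg* and *Rora*. A further peak, in *Nr1h4*, began 60 nt from the outer 5′ end of its gene. The measure by annotated starts was chosen after the positions had been seen. A start anywhere inside the genomic span of a peak, introns included, counted as within the limit. By the outermost 5′ end of the gene alone, 3 of the 12 were near the start, against 27.5% of all such peaks, since the new peaks of *Esrra*, *Nr3c2*, *Ppara*, *Rarb*, *Rarg* and *Rora* lay at starts further inside the gene.

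The sequences under these new peaks are shown for the 7 receptors whose peak reached into the first 50 bases after the start and whose start was in the table. Each is bases 21 to 50 of the transcript by RefSeq on GRCm38.p6, written 5′ to 3′ along the transcript, and capitals mark the bases that lie inside the peak.
Esrra (chr19:6921759-6921788, minus strand): GCAGCCGCGATGTCCTTTTGTGTCCTACAA
Nr1d2 (chr14:18239057-18239086, minus strand): ctgaggaggaggagcgggcGGAGTCACCGC
Nr3c2 (chr8:76902350-76902379, plus strand): ctgctcagaggaAGCTTGTGCAAGTCACCT
Ppara (chr15:85735796-85735825, plus strand): GAGGGCACACGCTAGGAAGGGCACACGCGT
Pparg (chr6:115361164-115361193, plus strand): AAGAGACCTGGGGCGCTGCGCTGGGGTATT
Rarb (chr14:16575427-16575456, minus strand): TGAGCTGCTCCGAGGCAGGAGGGTCTATTC
Rarg (chr15:102246451-102246480, minus strand): aaggtctcCACAGAGCTAGCTGCCTAGGCA
None of the 7 stretches holds GGAC, the core of the usual m6A motif, read on the transcript strand alone. No share over all genes was taken for stretches of this length. In the first 50 bases of these 7 transcripts GGAC is in 1, *Pparg*, outside the stretch shown and inside the peak. Over the first 50 bases after the start, GGAC was in 7 of 51 receptor windows and in 18.9% of the 32851 windows of all genes. GGACT, which contains it, was in 0 of the 51 and in 5.76% of all. The letters outside these windows were not searched. The paper reports that the usual motif, GGACU in RNA, was not found for the m6A peaks of *Wtap*-HKO livers as a whole.

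**Figure D2:**
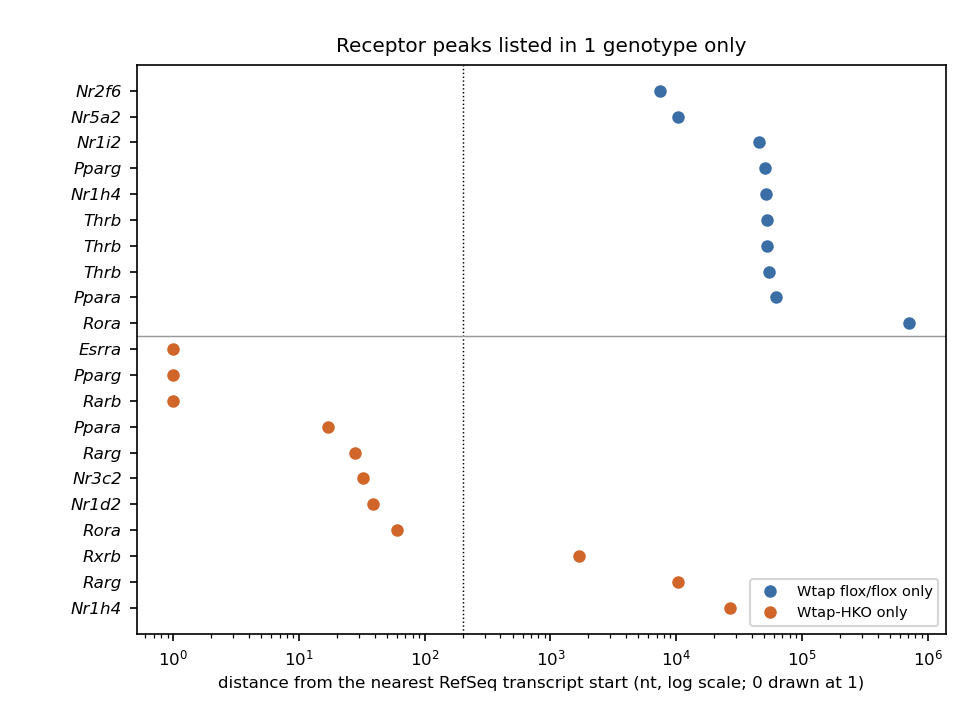
Each point is a receptor peak listed in 1 genotype only, placed by its distance from the nearest RefSeq transcript start (nt, log scale, with 0 drawn at 1), with the 200 nt limit as a dotted line. The 10 peaks of Wtap flox/flox livers alone lie at least 7382 nt away, and 8 of the 11 peaks of Wtap-HKO livers alone lie left of the line.

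Over all receptor peaks the shift was smaller. In *Wtap* flox/flox livers 5 of 59 receptor peaks (8.47%) lay within 200 nt of the outer 5′ end of the gene and 32 (54.2%) in its final 10%, against 10.8% and 42.1% of all peaks. In *Wtap*-HKO livers the numbers were 8 of 60 (13.3%) and 27 (45.0%), against 18.3% and 35.6%. The share in the final 10% was above that of all peaks in both genotypes. Counted by any annotated start, 7 of 56 receptor peaks (12.5%) in *Wtap* flox/flox and 15 of 56 (26.8%) in *Wtap*-HKO livers were within 200 nt, against 14.2% and 24.0% of all peaks. Both counts include the *Rxra* peak of 3 exonic blocks, whose genomic span, introns included, holds a start. Gene spans include introns, so this measures place along the gene and not along the mRNA.

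The enrichment of a peak, given as a linear ratio of IP over input, had a median of 5.18 in *Wtap* flox/flox livers (range 1.48 to 39.5) and 4.96 in *Wtap*-HKO livers (range 2.23 to 97.3), against 5.51 and 5.93 over all peaks. To follow single peaks, those with exactly 1 partner in the other list were paired, which gave 47 pairs in 25 receptor genes and 10499 pairs in all. The median log2 ratio of *Wtap*-HKO over *Wtap* flox/flox was -0.09 for the receptors and 0.01 for all pairs. Enrichment was lower in *Wtap*-HKO livers in 26 receptor pairs, higher in 20 and equal in 1. Over all 10499 pairs the counts were 5187 lower, 5289 higher and 23 equal. It was at least 2-fold lower in 6 of the 47 (12.8%), against 12.4% of all pairs, and at least 2-fold higher in 5 (10.6%), against 14.9%. The share lower was near the background and the share higher was below it, so the changes that follow are those of single genes.

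**Figure D3:**
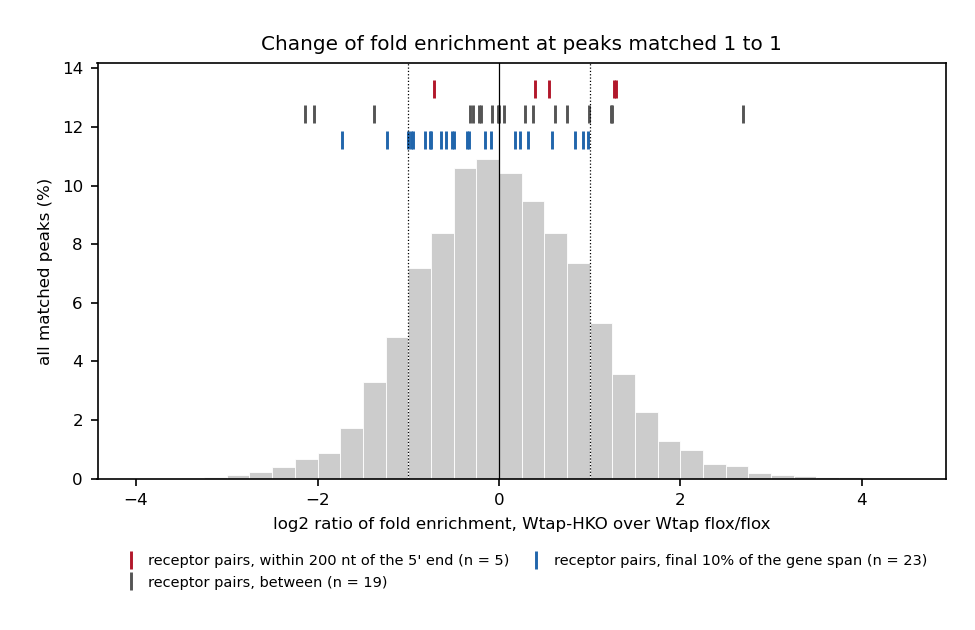
The grey histogram gives the log2 ratio of fold enrichment, Wtap-HKO over Wtap flox/flox, for all 10499 matched peaks (percent per bin of 0.25), and the ticks above it give the 47 receptor pairs by their place along the gene. The ticks of the final 10% lie mostly left of 0 (16 of 23, against 59.7% of all pairs placed there). Dotted lines mark 2-fold lower and higher.

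The place along the gene went with the sign. The 23 receptor pairs in the final 10% of the gene had a median log2 ratio of -0.50, against a median of -0.19 over all pairs placed there. Of the 23, 16 (69.6%) were lower and 7 higher, while 59.7% of all pairs placed there were lower. The 19 pairs between the ends had a median of 0.00, against -0.05. The 5 pairs within 200 nt of the 5′ end had a median of 0.55, against 0.83. Peak length moved with enrichment. Of the 26 receptor pairs that were lower, 20 were also shorter in *Wtap*-HKO livers, and of the 20 that were higher, 14 were longer, while over all genes the counts were 3443 of 5187 and 3586 of 5289. Of the 16 receptors with 2 or more pairs, 6 were lower in every pair (*Esrra*, *Nr1d2*, *Nr3c2*, *Nr5a2*, *Ppara* and *Thrb*) and 3 were higher in every pair (*Nr1i3*, *Nr2c2* and *Nr2f2*). Most of these receptors have only 2 pairs. The same counts were not taken over all genes, so they cannot be set against a background.

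**Figure D4:**
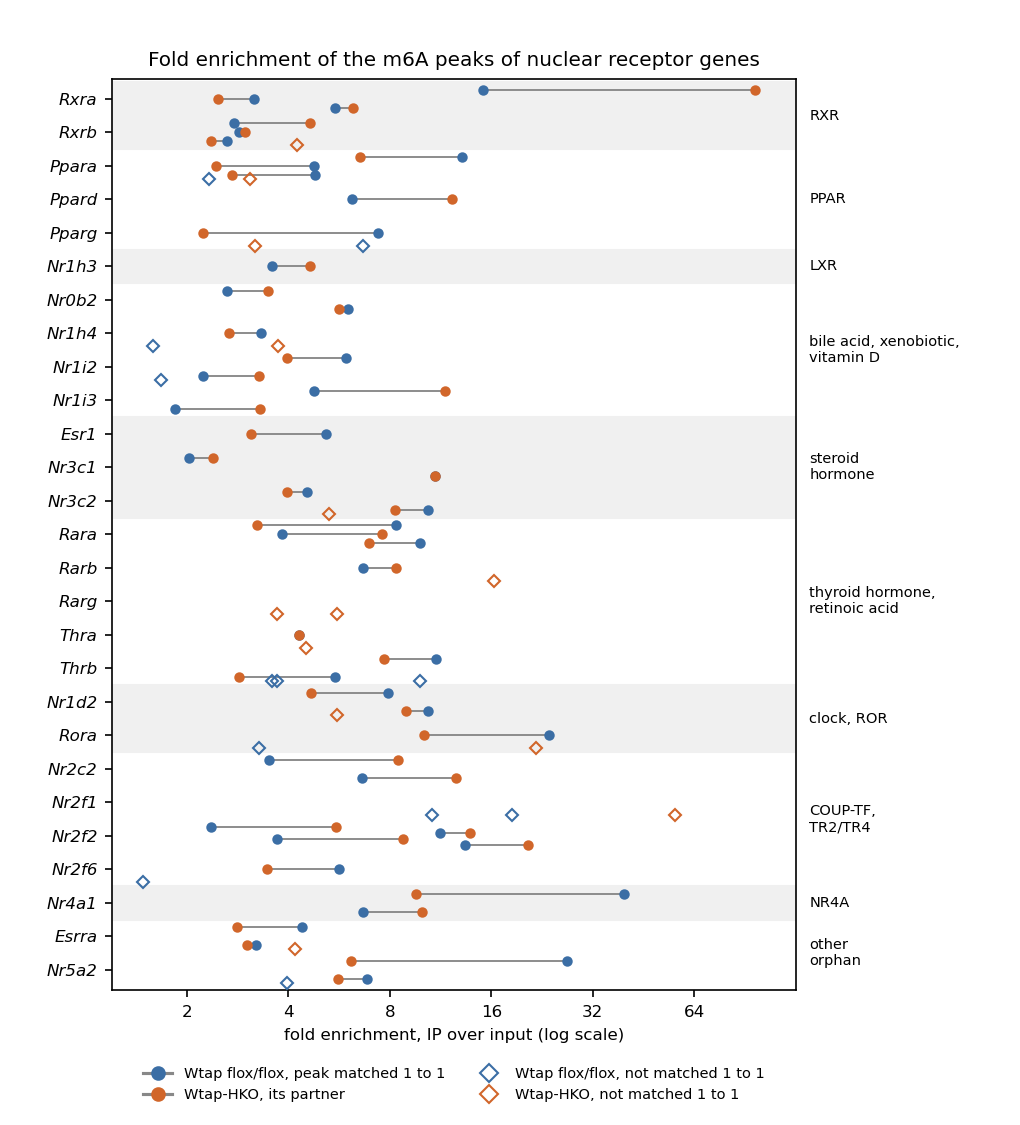
Each row is 1 of the 27 receptors with a peak, and the axis is the fold enrichment of IP over input on a log scale. Filled points joined by a line are 1 peak in Wtap flox/flox (blue) and Wtap-HKO (orange) livers, and open diamonds are peaks without a single partner in the other list. The Nr4a1 peak at 39.5 is the highest in Wtap flox/flox and the Rxra peak at 97.3 the highest in Wtap-HKO livers.

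The study's list of regions that differ between the genotypes held 14 regions in 7 receptor genes, which is 25.9% of the 27 receptors with a peak, against 27.8% of all 11558 genes with one. The genes were *Ppara* and *Thrb* with 3 regions each, *Nr1d2*, *Nr5a2* and *Rxra* with 2 each, and *Nr2f2* and *Rora* with 1 each. Of the 14 regions, 10 (71.4%) lay in the final 10% of the gene, against 42.3% of all regions in that list, and 0 lay within 200 nt of its 5′ end, against 19.7%. No region of that list covers a new receptor peak near a transcript start. The fold enrichments given below are from the 2 genotype lists.

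The peroxisome proliferator-activated receptors bind fatty acids and their derivatives. *Ppara*, the form that drives fatty acid oxidation in hepatocytes, had 3 neighbouring peaks in the final 10% of the gene that were all weaker and shorter in *Wtap*-HKO livers. The first, at chr15:85801021-85801561, was enriched 13.1-fold over 541 nt in *Wtap* flox/flox livers and 6.54-fold over 391 nt in *Wtap*-HKO livers, 2-fold lower. The second, at chr15:85801770-85802340, went from 4.78 over 571 nt to 2.44 over 181 nt. The third, at chr15:85802549-85802819, went from 4.8 to 2.72. All 3 lie in regions of the list of differences. Upstream of them a weak peak, at 2.32, was in *Wtap* flox/flox livers alone, and the peak near the start, at 3.08, was in *Wtap*-HKO livers alone. *Ppara* thus had 4 peaks in each genotype, of which 3 were at the same places. By RT-qPCR the paper found less *Ppara* and *Pparg* mRNA in *Wtap*-HKO livers. Any part of this in the peaks of both genes was not tested.

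*Pparg*, best known for fat storage in adipocytes, had 1 matched peak, at chr6:115490160-115490339, 65 nt from the 3′ end of the gene. Its fold enrichment was 7.38 in *Wtap* flox/flox livers and 2.23 in *Wtap*-HKO livers, 3.31-fold lower, with log10 false discovery rates of -5.97 and -6.12. A second peak, at 6.64, was in *Wtap* flox/flox livers alone, and the peak at the start, at 3.19, in *Wtap*-HKO livers alone. *Ppard*, a more widely used form, moved the other way, from 6.18 to 12.2 at its single peak. That difference was just under 2-fold.

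Retinoid X receptors are the shared partners of the PPARs, the liver X receptors, the bile acid receptor and others. *Rxra*, the main form in liver, had the most enriched receptor peak. It covers 3 exonic blocks from chr2:27677274-27710584 and was enriched 15.1-fold in *Wtap* flox/flox livers and 97.3-fold in *Wtap*-HKO livers, a log2 ratio of 2.69, over nearly the same exonic length (270 and 300 nt). An annotated start falls inside its genomic span, introns included, but whether an exonic block covers that start was not measured. The peak is not in the list of differences. Both other *Rxra* peaks are in it although they changed little, from 3.16 to 2.47 and from 5.50 to 6.22, and the first of these shortened from 658 to 300 nt. The 3 matched peaks of *Rxrb* went from 2.76 to 4.63, from 2.86 to 2.98 and from 2.63 to 2.36, and 1 more, at 4.23, was in *Wtap*-HKO livers alone. *Rxrg* had no peak.

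The receptors for sterols, bile acids and foreign compounds had peaks with fold enrichments from 1.59 to 6.00 in *Wtap* flox/flox livers, where the median of all peaks was 5.51, and none is in the list of differences. *Nr1h3*, the liver X receptor for oxysterols, went from 3.58 to 4.64 at its single peak. *Nr1h4*, the bile acid receptor FXR, went from 3.32 to 2.66 at its shared peak, had a peak of 1.59 near its 3′ end in *Wtap* flox/flox livers alone and one of 3.72 at its 5′ end in *Wtap*-HKO livers alone. *Nr0b2*, the SHP repressor that FXR induces, went from 2.63 to 3.47 and from 6.00 to 5.67. *Nr1i2*, the xenobiotic receptor PXR, showed both directions in 1 gene. Its peak at the 3′ end went from 5.94 to 3.96, a second there, at 1.67, was not listed in *Wtap*-HKO livers, and its peak at the 5′ end went from 2.23 to 3.27. *Nr1i3*, the related receptor CAR, was higher at both ends, from 4.78 to 11.7 (log2 ratio 1.29) at the 5′ end, at chr1:171214000-171214378, and from 1.84 to 3.29 at the 3′ end.

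Thyroid hormone and retinoic acid receptors included the receptor with the most peaks. *Thrb*, the main thyroid hormone receptor of hepatocytes, had 5 peaks in control (*Wtap* flox/flox) livers, all in the final 10% of the gene between 18033445 and 18036592 on chromosome 14. Their fold enrichments, from 5′ to 3′, were 11, 3.70, 3.58, 5.49 and 9.84. In *Wtap*-HKO livers those of 11 and 5.49 were listed, at 7.68 and 2.85, and the other three had no overlapping peak. The 3 regions of *Thrb* in the list of differences cover all of these but the first peak. *Thra* had 1 matched peak with 4.31 and 4.29, and a second, at 4.52, in *Wtap*-HKO livers alone.

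Among the retinoic acid receptors, *Rara* went in both directions. Its peak at chr11:98950267-98950685 went from 8.34 to 3.22 (log2 ratio -1.37), the next from 3.82 to 7.60, and the one in the final 10% of the gene from 9.82 to 6.95. *Rarb* went from 6.68 to 8.33 at its 3′ peak and had a peak at an internal transcript start, at 16.3, in *Wtap*-HKO livers alone. *Rarg* had 2 peaks, at 5.59 in its final 10% and 3.69 near an internal start, and neither was in *Wtap* flox/flox livers. *Rarb* and *Rarg* thus had their strongest or only peaks in *Wtap*-HKO livers.

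Markers of the other cells of the liver had more peaks in *Wtap*-HKO livers. The whole list grew too, from 15635 peaks of 9020 genes to 19185 peaks of 10634 genes. Receptor peaks went only from 59 to 60. In *Wtap* flox/flox and then *Wtap*-HKO livers, the 6 Kupffer cell markers had 6 and 11 peaks (3 and 5 genes with a peak), the 5 endothelial markers 5 and 10 (4 genes in each), and the 5 stellate cell markers 3 and 6 (2 and 4 genes). *Adgre1*, *Stab2* and *Reln* had no peak in either list. The 8 hepatocyte markers had 11 and 13 (4 genes in each). These are peaks and not levels of RNA, and their part in the receptor peaks of *Wtap*-HKO livers alone was not tested.

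The 2 clock-linked receptors were lower at each of their 3 shared peaks, while 5187 of all 10499 pairs were lower. *Nr1d2*, which encodes the repressor REV-ERBβ, went from 10.4 to 8.94 at chr14:18214847-18215415 and from 7.90 to 4.66 in its final 10%, both in the list of differences, and the peak of 5.56 at its start was in *Wtap*-HKO livers alone. *Rora*, which binds the same DNA sites as an activator, had a peak of 23.7 over 571 nt at chr9:69378863-69379433 that went to 10.1 over 481 nt, a log2 ratio of -1.23, and this region is in the list of differences. A weaker *Rora* peak, at 3.27, was in *Wtap* flox/flox livers alone. The *Rora* peak found in *Wtap*-HKO livers alone, 60 nt from a start, had a high fold enrichment of 21.7 over only 121 nt, with a log10 false discovery rate of -4.77.

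The COUP transcription factors and their relatives are orphan receptors that mostly repress transcription. They were higher at 6 of their 7 matched peaks, against 5289 of all 10499 pairs. Of the 7, 4 were of *Nr2f2*, 2 of *Nr2c2* and 1 of *Nr2f6*, and peaks of 1 gene are not independent. *Nr2f2* was higher at all 4. Its peak at chr7:70357965-70358294, in the list of differences, went from 3.69 over 330 nt to 8.75 over 510 nt. The others went from 2.35 to 5.52, from 11.3 to 13.8 and from 13.4 to 20.6, so that 2 of the 4 passed 2-fold. *Nr2c2*, or TR4, went from 3.51 to 8.43 at its 5′ end (log2 ratio 1.26) and from 6.61 to 12.6 near its 3′ end. *Nr2f1* had 2 peaks of 121 nt in *Wtap* flox/flox livers, at 18.4 and 10.7, where *Wtap*-HKO livers had 1 peak of 601 nt at 56.0 over both, at chr13:78189302-78189902. That change could not be paired 1 to 1 and is in no count above. *Nr2f6* went the other way, from 5.65 to 3.45, and a second peak, at 1.48, was in *Wtap* flox/flox livers alone.

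The remaining receptors with peaks were steroid receptors and orphans. *Nr5a2*, or LRH-1, an activator of bile acid synthesis genes, had the lowest log2 ratio of the 47 receptor pairs, -2.13. Its peak ending in the final 10% of the gene, at chr1:136844936-136882298, went from 26.9 over 810 nt in 2 exonic blocks to 6.13 over 600 nt in 1 block, 4.39-fold lower, and a second peak, at 3.96, was not listed in *Wtap*-HKO livers. Both are in the list of differences. Its remaining peak went from 6.85 to 5.61. *Nr4a1*, the immediate early gene Nur77, went from 39.5 to 9.58 at chr15:101270419-101270658, 4.12-fold lower, and had a log2 ratio of 0.59 at its other peak, which was at 6.65 in *Wtap* flox/flox livers. The peak of 39.5 had a log10 false discovery rate of -9.94, against -37.4 for its weaker partner, and it is not in the list of differences. *Esrra*, which works with the coactivator PGC-1α on mitochondrial genes, went from 4.39 to 2.81 and from 3.20 to 3.01, and its new peak at the start had 4.19.

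No pair of the steroid receptors reached 2-fold. *Nr3c1*, the glucocorticoid receptor, had 10.9 in both genotypes over the same 1288 nt, and 2.03 and 2.39 at a second peak. *Nr3c2*, the mineralocorticoid receptor, went from 4.54 to 3.95 and from 10.4 to 8.26, with a new peak of 5.27. *Esr1*, an oestrogen receptor, went from 5.18 over 300 nt to 3.09 over 120 nt. None of the 5 pairs is in the list of differences.

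The 8 receptor genes without a peak in either list were *Nr1h2*, the second liver X receptor, *Vdr*, the vitamin D receptor, *Nr4a2* and *Nr4a3*, relatives of *Nr4a1*, and *Nr2c1*, *Nr6a1*, *Rxrg* and *Esrrg*. Closely related receptors thus differed, with peaks in *Nr1h3*, *Nr4a1* and *Nr2c2* and none in *Nr1h2*, *Nr4a2* or *Nr2c1*. The lists hold no RNA levels, so a gene without a peak may have had too few fragments for one.

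Receptors act through coactivators and corepressors. Of 20 coregulator genes, 19 had a peak in either genotype, with 46 peaks in the *Wtap* flox/flox list and 48 in the *Wtap*-HKO list, and 6 (31.6%) were in the list of differences, against 27.8% of all genes with a peak. Their 37 matched peaks had a median log2 ratio of -0.07, with 5 (13.5%) at least 2-fold lower and 1 (2.70%) at least 2-fold higher, against 12.4% and 14.9% of all pairs. *Med1*, the Mediator subunit that contacts receptors, had 2 regions in the list of differences, and its 2 matched peaks had log2 ratios of -1.31 and -1.29. *Ncoa6*, a coactivator, also had 2 regions, and its 3 matched peaks ran from -1.17 to -0.65. *Carm1*, a coactivating arginine methyltransferase, had 1 region, and its 2 pairs had -0.54 and 0.74.

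Of 35 genes that receptors switch on or off in liver, 27 had a peak. Of these, 16 (59.3%) were in the list of differences, against 27.8% of all genes with a peak. All 5 hepatocyte markers with a peak were also in that list, with 10 regions. The list held 1 of 5 Kupffer cell, 0 of 4 endothelial and 1 of 4 stellate cell markers with a peak. Whether the share of the target genes goes with receptor control or with expression in hepatocytes was not tested. The target genes had 48 peaks in the *Wtap* flox/flox list, with 16 (33.3%) found there alone, against 19.9% of all peaks. They had 41 in the *Wtap*-HKO list, with 8 (19.5%) found there alone, against 35.3%. Their 31 matched peaks had a median log2 ratio of 0.46, with 7 (22.6%) at least 2-fold higher and 2 (6.45%) at least 2-fold lower, against 14.9% and 12.4% of all pairs. *Ugt1a1*, which conjugates bilirubin and shares exons with its neighbours, had 2 regions in the list of differences, with log2 ratios of its pairs of -0.81 and 0.85. *Abcb11*, the bile salt export pump that FXR induces, had 1 region and 1 weak peak, at 1.57, in *Wtap* flox/flox livers alone.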

How the data were processed

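m6ARIP-seq of poly(A)+ liver RNA was used (8 libraries). The authors aligned reads with BWA mem (0.7.12 in the submitters' processing notes) to GRCm38 and called peaks with exomePeak. They deposited 3 lists with replicates combined: the peaks of each genotype and the regions that differ. Fold enrichment is deposited as a linear ratio of IP over input, and false discovery rates as log10 scores. The list of differences also holds the authors' p-value, false discovery rate and log2 fold change for the difference, 3 columns that were not used. Depth is unknown.

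Exonic blocks were compared on the same strand (at least 1 shared base), and peaks with exactly 1 partner in each list were paired. Positions are 1-based and relative to RefSeq gene spans and transcript starts on GRCm38.p6 (33 of 35 receptors had a window of 250 bases before to 50 after a start). Python 3.11.15, pandas 2.3.3, numpy 2.4.6, scipy 1.17.1 and matplotlib 3.10.9 were used. Overlap and pairing were tested on the *Wtap* flox/flox list against a copy of itself with some peaks moved away. Placement was tested on simulated peaks.

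All values are descriptions, with no test, beside the same value over all peaks. Named genes were receptors with peaks in 1 genotype, a region in the list of differences or a pair 2-fold apart, all receptors without peaks, and the 3 genes of each other list with most regions in the list of differences. The remaining receptors are also given. Some genes that this rule names are not reported here. Members and lists were chosen with earlier results of these data known.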

Additional observations from a re-analysis of the deposited data

How the results depend on the processing

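The 14 values described were recomputed under 57 alternatives in all (among them stricter limits on the false discovery rate and on fold enrichment, 50% of bases shared, comparison of whole spans and others). In 53 the value moved by less than its limits, and in 4 by more. These limits were wide. The median fold enrichment of receptor peaks in *Wtap*-HKO livers, 4.96, was 7.60 for the highest peak of each receptor, and counted as within them. Only the median log2 ratio has a sign, and it stayed negative, from -0.18 to -0.08. The other values are counts, shares or medians without a direction. The number of receptor peaks at least 2-fold higher in *Wtap*-HKO livers, 5, was 3 when 50% of the bases of both peaks had to be shared, and 3 with pairs at the 5′ end left out. The share of receptor peaks at the 5′ end in *Wtap*-HKO livers, 13.3%, was 25% when counted by a midpoint in the first 10% of the gene, and 26.8% within 200 nt of any RefSeq start, against 24.0% of all peaks. Leaving out pairs at the 5′ end and counting by any RefSeq start were chosen after seeing the data. No paired analysis was possible because each list combines the replicates of its genotype, and no replicate could be left out for the same reason. Gene spans take no account of the isoform used in liver. A ratio of 2 fold enrichments has no error here, and differences in depth between libraries could not be examined.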

Other observations

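Of 12 further nuclear receptor genes, 3 had a peak. *Nr1h5*, a second FXR gene, went from 28.5 in *Wtap* flox/flox livers to 35.9 in *Wtap*-HKO livers at its single peak, and was named after its values had been seen.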
